A study of Mus musculus with 29 samples.

Results

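The 8 genes described here are Reln, Calb2, Trp73, Tbr1, Eomes, Ebf1, Ebf2 and Ebf3, a set used to recognise Cajal-Retzius cells and the earliest neurons of the cerebral cortex. They were chosen by name from the 25239 genes listed in the count tables, with earlier results of these data known. All 8 passed the filter on low counts and were among the 15383 genes tested. Their levels were read in 8 RNA-seq libraries of brain tissue from mouse embryos of stage E11.5.

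There were 4 groups of 2 libraries each: wild-type forebrain, forebrain of embryos with the hs267-853 knockout, wild-type midbrain, and midbrain of embryos with the hs654 knockout. The knocked-out elements are enhancers, which are not genes, so no gene's count checks the genotype, and it was not established whether hs267-853 stands for 1 or 2 deletions. Each library held tissue pooled from several embryos, and nothing in the labels says that the pools came from separate litters, so p-values measure the spread between these pools, which may be technical. The strain is not given in the sources used here, and the 21 enhancer-capture Hi-C samples among the 29 samples of the series were not analysed here.

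Cajal-Retzius cells are among the first neurons of the cortex. They arise at the edges of the cortical primordium, chiefly the cortical hem, the septum and the boundary with the subpallium, and spread beneath the surface of the cortex, where they secrete reelin. Reelin, the product of Reln, binds the receptors Vldlr and Lrp8 on migrating neurons and leads to phosphorylation of the adaptor Dab1, which guides the layering of the cortex. Other early neurons form the preplate together with them. Reln and the Ebf genes are not limited to the cortex: both are known from newborn neurons of other brain regions as well.

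The 8 genes did not share a direction between the tissues. Tbr1, Eomes, Trp73 and Calb2 were far higher in the forebrain than in the midbrain, by 17.6-fold to 116-fold in wild-type tissue. Ebf1, Ebf2 and Ebf3 went the other way and were 2.05-fold to 6.29-fold lower in the forebrain. Reln stood at a similar level in both tissues, with a log2 difference of 0.18 that did not pass the test. None of the 8 genes passed the test in either knockout comparison. In such bulk tissue, fewer cells of a type and less RNA per cell cannot be told apart.

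**Figure D1:**
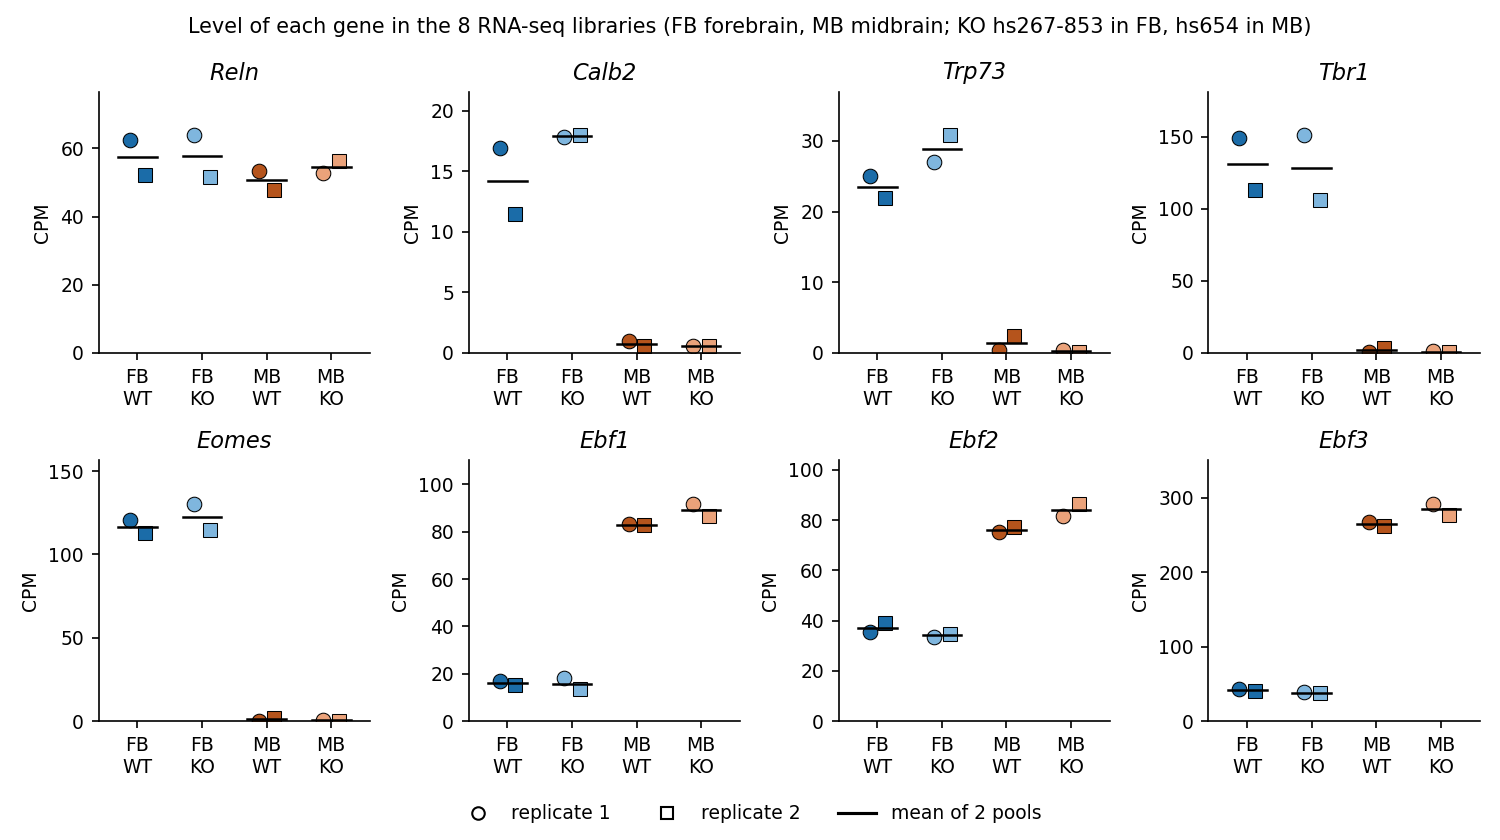
Counts per 1000000 (CPM, vertical axis) of the 8 genes in each of the 8 libraries, by group. Circles are replicate 1, squares replicate 2, and lines the mean of the 2 pools. Tbr1, Eomes, Trp73 and Calb2 sit near 0 in all 4 midbrain libraries, while the 3 Ebf genes are higher there than in any forebrain library.

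CPM values are counts per 1000000 of the TMM-scaled library total, so they compare 1 gene between libraries and not 2 genes with each other. Libraries held 9051632 to 18024406 counts in genes. These were 40.7% to 44.1% of the reads in genes, outside any feature or ambiguous between features. A count of 3, taken as the detection floor, was worth 0.170 to 0.328 CPM, a limit that covers counting error only. The labelled tissues matched their regional markers: 9 of 9 tested forebrain genes were higher in the wild-type forebrain and 7 of 7 tested midbrain and hindbrain genes were lower there. Erythroid and endothelial genes were present in every library, with summed levels of 2625 to 5245 CPM and 253 to 333 CPM. Summed Y-linked genes ranged from 0 to 62.5 CPM in the wild-type forebrain pools, 81.8 to 141 CPM in the knockout forebrain, 86.2 to 182 CPM in the wild-type midbrain and 105 to 241 CPM in the knockout midbrain. The wild-type forebrain pools lay below all others, while the ranges of the other groups overlapped and pools differed within each group. The part of these sums in the results was not tested.

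Reln, the gene of the secreted signal, lies at chr5:21884454-22344705 of GRCm38. Its level was 62.6 and 52.2 CPM in the wild-type forebrain, 63.8 and 51.7 CPM in the knockout forebrain, 53.3 and 47.8 CPM in the wild-type midbrain and 52.7 and 56.3 CPM in the knockout midbrain. The groups overlapped, and in both forebrain groups the first pool was the higher of the pair. The forebrain exceeded the midbrain by a log2 difference of 0.18 (SE 0.115) in wild-type tissue, with an edgeR adjusted p of 0.265. The 95% interval ran from -0.07 to 0.43, so a difference of the size seen for the other members lay outside it. In the knockout libraries the log2 difference was 0.09 (SE 0.116, edgeR adjusted p = 0.62). That comparison takes its means from other libraries, but its spread was estimated over all 8 libraries.

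The rest of the reelin pathway was also close to level between the tissues. Among 12 tested genes of the pathway list, Reln included, 0 were higher and 1 was lower in the wild-type forebrain, and the median log2 difference was 0.06 beside 0.00 for all genes tested. The one that fell was Vldlr, a reelin receptor, with a log2 difference of -0.60 (edgeR adjusted p = 0.0027). In the knockout libraries 3 were higher and 0 lower. Src, a kinase that acts on Dab1, differed by 0.20 (edgeR adjusted p = 0.0486), and the adaptors Crkl and Crk by 0.18 (edgeR adjusted p = 0.0368) and 0.17 (edgeR adjusted p = 0.0369), where the wild-type values were 0.16, 0.15 and 0.05. These calls depended on single libraries: without either knockout midbrain library 0 genes passed, and without either knockout forebrain library or wild-type midbrain replicate 1, 1 was higher. Without either wild-type forebrain pool 2 were higher.

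Calb2 encodes calretinin, a calcium-binding protein that marks Cajal-Retzius cells and several interneuron types, and lies at chr8:110142526-110168212. It reached 16.9 and 11.45 CPM in the wild-type forebrain and 17.8 and 17.9 CPM in the knockout forebrain. In the midbrain it was 0.949 and 0.559 CPM in wild-type tissue and 0.602 and 0.546 CPM in knockout tissue. Every forebrain library was above every midbrain library. The log2 difference between the wild-type tissues was 4.18 (SE 0.291), an 18.2-fold higher level in the forebrain with an edgeR adjusted p of 2.57e-07. These midbrain values rested on 5 to 15 counts per library.

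Trp73 encodes p73, a relative of p53 that Cajal-Retzius cells of the hem and septum need for their survival. The gene lies at chr4:154056249-154139875. Its level was 25.0 and 21.9 CPM in the wild-type forebrain and 27.0 and 30.8 CPM in the knockout forebrain. The midbrain pools held 0.443 and 2.40 CPM in wild-type tissue and 0.430 and 0.109 CPM in knockout tissue. Wild-type midbrain replicate 2 stood well above the other midbrain libraries, with 30 counts where the others had 7, 5 and 1. The wild-type log2 difference was 4.14 (SE 0.358, edgeR adjusted p = 1.97e-06), and it was 5.70 without wild-type midbrain replicate 2 and 3.28 without replicate 1 of that group.

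Tbr1 and Eomes are T-box transcription factors of the cortical glutamatergic lineage. Eomes (also called Tbr2) marks intermediate progenitors, and Tbr1 marks the young neurons that follow and controls the fate of preplate and deep-layer neurons. Tbr1 lies at chr2:61802863-61814114 and Eomes at chr9:118478186-118486132. Because both genes rose together in the forebrain, their RefSeq promoter windows are shown, beside that of Ebf3, the member that differed most in the opposite direction. Each window runs from 250 bases before to 50 after an annotated start in GRCm38.p6, and capitals mark matches to any of 5 short motifs, on either strand. The Tbr1 window is chr2:61804203-61804502 on the plus strand, the Eomes window chr9:118477939-118478238 on the plus strand and the Ebf3 window chr7:137314396-137314695 on the minus strand.
Tbr1: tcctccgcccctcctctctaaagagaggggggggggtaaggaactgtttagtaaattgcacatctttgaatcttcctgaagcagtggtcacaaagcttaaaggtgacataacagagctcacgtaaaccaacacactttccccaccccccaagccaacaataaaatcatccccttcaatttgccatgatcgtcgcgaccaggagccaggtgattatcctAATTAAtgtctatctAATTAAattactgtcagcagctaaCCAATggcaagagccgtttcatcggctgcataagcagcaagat
Eomes: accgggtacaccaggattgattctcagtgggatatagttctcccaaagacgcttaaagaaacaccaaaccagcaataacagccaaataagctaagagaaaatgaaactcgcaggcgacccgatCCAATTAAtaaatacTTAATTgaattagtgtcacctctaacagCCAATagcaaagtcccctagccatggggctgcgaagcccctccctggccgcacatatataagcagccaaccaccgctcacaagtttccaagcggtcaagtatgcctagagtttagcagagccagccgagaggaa
Ebf3: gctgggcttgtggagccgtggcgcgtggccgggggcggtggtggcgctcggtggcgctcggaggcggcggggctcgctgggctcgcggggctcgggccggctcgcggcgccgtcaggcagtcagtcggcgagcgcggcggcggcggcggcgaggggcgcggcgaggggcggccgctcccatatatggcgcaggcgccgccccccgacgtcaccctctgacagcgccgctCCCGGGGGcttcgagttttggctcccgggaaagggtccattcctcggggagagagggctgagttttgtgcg

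The windows of Tbr1 and Eomes had a GC content of 46.0% and 47.3%, below the median of 52.7% over all 32851 windows of the table. That of Ebf3 had 77.0%. GC content did not follow the direction of the tissue difference: the Ebf1 windows had 36.7% and 53.0%, and the Trp73 windows 57.7% and 77.7%. The motifs AATTAA, a core of homeodomain sites, and CCAAT, a core of NF-Y sites, both occurred in the Tbr1 and Eomes windows. AATTAA also occurred in 1 Ebf1 window, and the Trp73 windows held neither motif. In all windows AATTAA occurred in 11.3%, CCAAT in 37.4% and both in 4.93%, and these 2 motifs were chosen after the windows had been read. In the Eomes window 1 AATTAA match overlaps a CCAAT match. The Ebf3 window held CCCNNGGG, part of the EBF recognition sequence, which 13.7% of windows hold and which the Reln window also held. No member window had AGGTGTGA, a T-box core found in 1.28% of windows, or CAGATG, an E-box found in 17.2%. The longest run shared by the Tbr1 and Eomes windows was ataagcagc, 9 bases that 48 of all windows hold (0.146%). Windows were at hand for 6 of the 8 genes, and a match is a description of letters, not a bound site.

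Tbr1 was at 149 and 113 CPM in the wild-type forebrain and at 151 and 106 CPM in the knockout forebrain. In the midbrain it was at 0.696 and 3.35 CPM in wild-type tissue and at 1.46 and 0.437 CPM in knockout tissue. No forebrain pool came near a midbrain pool, and wild-type midbrain replicate 2 was again the highest of its tissue. The wild-type log2 difference was 6.12 (SE 0.340), which is 69.3-fold, with an edgeR adjusted p of 3.25e-08. It was 7.54 without wild-type midbrain replicate 2 and 5.28 without replicate 1.

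Eomes had the largest tissue difference of the 8 genes in both genotypes. The wild-type forebrain pools held 121 and 113 CPM and the knockout forebrain pools 130 and 115 CPM. The wild-type midbrain pools held 0.190 and 2.00 CPM and the knockout midbrain pools 0.602 and 0.218 CPM, from 3, 25, 7 and 2 counts. The tissues were far apart, with wild-type midbrain replicate 2 the highest midbrain pool. The wild-type log2 difference was 6.86 (SE 0.290), a 116-fold higher level in the forebrain (edgeR adjusted p = 2.93e-09). Leaving out wild-type midbrain replicate 2 raised it to 9.20, and leaving out replicate 1 lowered it to 5.86, so the direction held while the size rested on a few midbrain counts.

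The 3 Ebf genes encode helix-loop-helix transcription factors that act in neurons soon after they leave the cell cycle, and Ebf1 is also a master regulator of B cells. Ebf1 lies at chr11:44618100-45008096, Ebf2 at chr14:67233292-67430952 and Ebf3 at chr7:137193671-137322805. Ebf2 overlaps 2 other genes of the count tables and Ebf3 overlaps 1, and without knowledge of strand in the counting their reads cannot be told apart from those neighbours' there.

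Ebf3 stood at 43.2 and 41.1 CPM in the wild-type forebrain, 39.2 and 37.5 CPM in the knockout forebrain, 268 and 262 CPM in the wild-type midbrain and 292 and 278 CPM in the knockout midbrain. All forebrain pools were low and all midbrain pools high. The wild-type forebrain was lower by a log2 difference of -2.65 (SE 0.0657), or 6.29-fold, with an edgeR adjusted p of 4.75e-11. Ebf1 had the same order, with 17.0 and 15.4 CPM in the wild-type forebrain, 18.2 and 13.5 CPM in the knockout forebrain, 83.2 and 82.7 CPM in the wild-type midbrain and 91.8 and 86.7 CPM in the knockout midbrain. Its groups did not overlap between tissues, and its wild-type log2 difference was -2.35 (SE 0.119, edgeR adjusted p = 1.53e-08), or 5.11-fold.

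Ebf2, the family member most often used to mark Cajal-Retzius cells in reporter mice, differed least of the 3. It was at 35.4 and 39.1 CPM in the wild-type forebrain, 33.6 and 34.8 CPM in the knockout forebrain, 75.1 and 77.3 CPM in the wild-type midbrain and 81.7 and 86.5 CPM in the knockout midbrain. The tissues did not overlap, and the wild-type log2 difference was -1.03 (SE 0.082, edgeR adjusted p = 8.88e-07), or 2.05-fold. Ebf4, the remaining member of the family, was level between the tissues, with a log2 difference of -0.15 (edgeR adjusted p = 0.502). The B lymphoid list summed to 2.50 to 3.56 CPM in the forebrain libraries and 58.7 to 83.7 CPM in the midbrain libraries, and most of the midbrain sum was Pax5, at 57.8 to 82.2 CPM. Pax5 is a B cell factor and also a regional gene of the midbrain and hindbrain. The other named members were low in every library: Cd79b had 3 to 13 counts, Rag1 3 to 14, Cd79a 0 to 5 and Vpreb1 1 to 4, and Rag2 was at 0 in all libraries but 1.

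**Figure D2:**
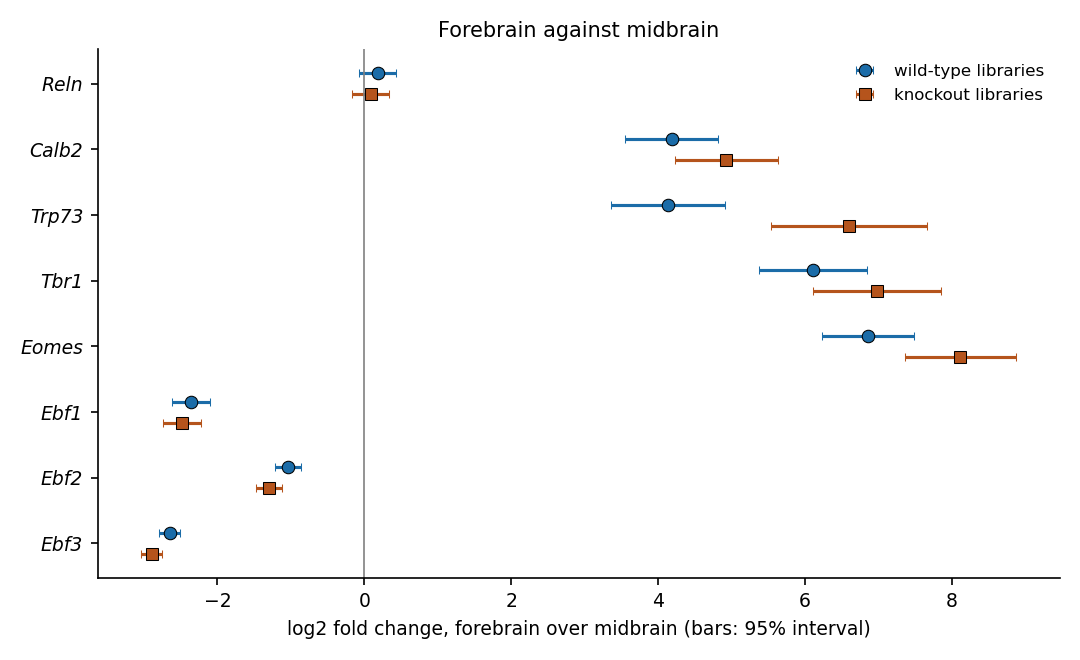
Forebrain over midbrain log2 fold change (horizontal axis) of the 8 genes in the wild-type and in the knockout libraries, with 95% intervals as bars. Eomes, Tbr1, Trp73 and Calb2 lie far to the right, the 3 Ebf genes to the left and the Reln intervals span 0 in both comparisons.

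Between the wild-type tissues 7 of the 8 genes passed the edgeR test (threshold 0.05), with 4 of them higher in the forebrain and 3 lower. Over all 15383 genes 29.6% passed, 14.3% higher and 15.3% lower. The comparison of the knockout tissues gave the same 7 genes in the same directions, against 29.4% of all genes, 14.6% higher and 14.8% lower. There the log2 differences were 8.12 for Eomes, 6.98 for Tbr1, 6.60 for Trp73, 4.93 for Calb2, -2.89 for Ebf3, -2.49 for Ebf1 and -1.30 for Ebf2. Without knockout midbrain replicate 1 the first 3 became 9.06, 8.15 and 7.92. Without knockout midbrain replicate 2 they became 7.65, 6.45 and 6.04. The 2 tissue comparisons take their means from different libraries but share the estimate of the spread. In the second the 2 deletions and the tissues cannot be told apart. Sets such as this one, picked for their known regional expression, are not a random draw from all genes.

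Pan-neuronal transcripts made up a larger share of the midbrain pools. The 10 pan-neuronal genes of the list, such as Tubb3 and Stmn2, summed to 1712 to 1982 CPM in the wild-type forebrain, 1562 to 2222 CPM in the knockout forebrain, 3864 to 4013 CPM in the wild-type midbrain and 4219 to 4357 CPM in the knockout midbrain. All 10 were lower in the wild-type forebrain, with a median log2 difference of -1.19. Set against that sum, Reln no longer looked level: it was 28.7 to 33.1 CPM per 1000 pan-neuronal CPM in the 4 forebrain libraries and 12.4 to 13.3 in the 4 midbrain libraries. For Ebf2 the order vanished, at 15.1 to 22.8 in the forebrain and 18.7 to 20.0 in the midbrain. Ebf1 stayed lower in the forebrain, at 8.20 to 8.998 against 19.9 to 21.8, and Ebf3 likewise, at 17.6 to 24.0 against 63.7 to 69.3.

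All genes were refitted with libraries scaled to the pan-neuronal sum, a setting chosen after seeing the data. The refit has the same denominator as the ratios above, so its agreement with them was built in and adds no support. Under this refit Reln was higher in the wild-type forebrain by 1.27 on the log2 scale (edgeR adjusted p = 1.48e-07). Ebf2 differed by 0.07 (edgeR adjusted p = 0.775). This scaling moved the median of all genes to 1.10, so relative to the median gene Reln again stood close to level. It called 12290 genes higher and 401 lower, where TMM scaling called 2196 and 2352. The differences of Ebf1 and Ebf3 were -1.26 and -1.56, and those of Calb2, Trp73, Tbr1 and Eomes were 5.27, 5.20, 7.16 and 7.92. Among TMM, RLE, upper-quartile and pan-neuronal scaling, only the last turned a direction, that of Ebf2, whose call it ended, and it gave Reln a call. Which denominator describes the cells that express these genes was not tested.

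**Figure D3:**
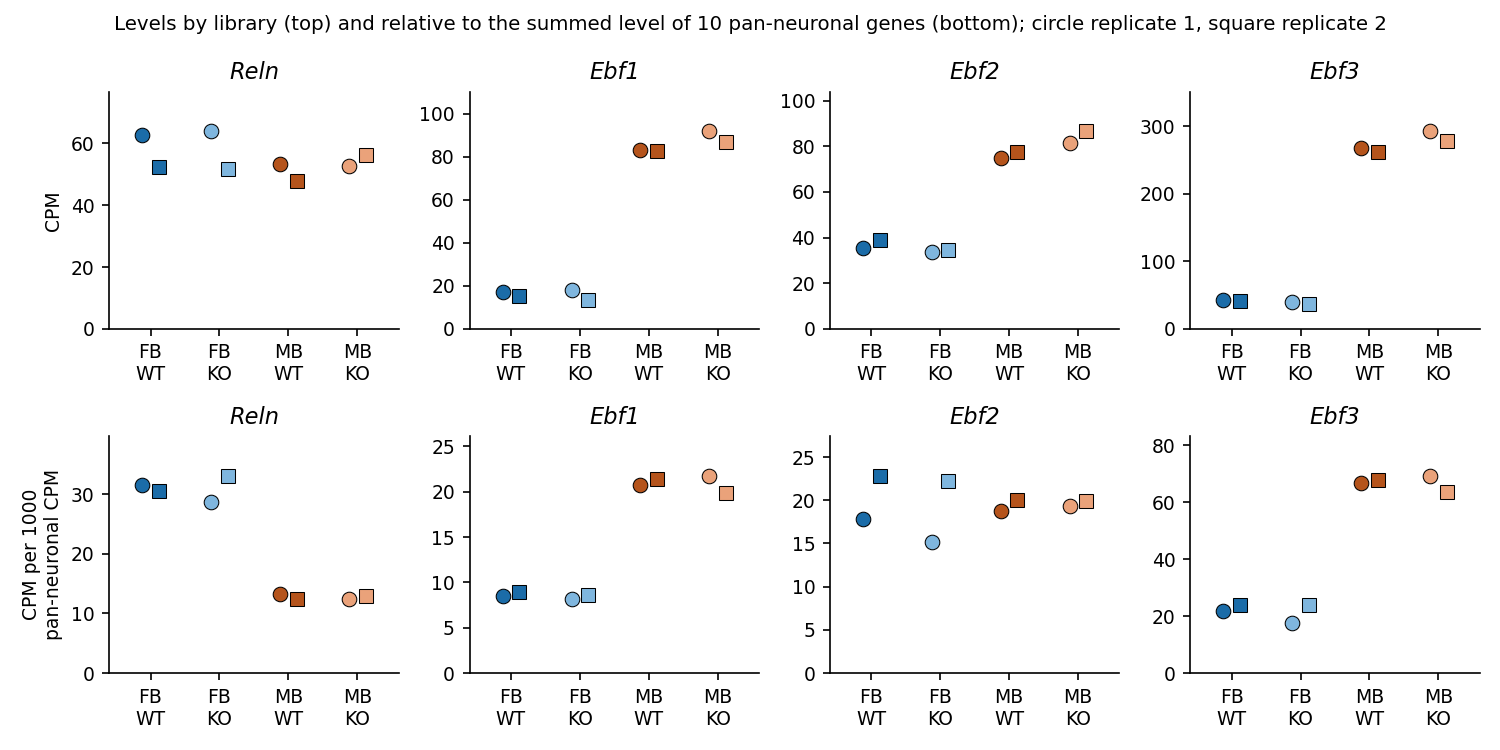
Levels of Reln, Ebf1, Ebf2 and Ebf3 in the 8 libraries as CPM (top) and as CPM per 1000 CPM of 10 pan-neuronal genes (bottom), with circles for replicate 1 and squares for replicate 2. Reln separates the tissues only in the bottom row, at 28.7 to 33.1 against 12.4 to 13.3, and Ebf2 only in the top row.

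Other genes known from Cajal-Retzius cells did not follow Tbr1 and Trp73. Of 8 such genes, all tested, 6 were lower and 1 higher in the wild-type forebrain, with a median log2 difference of -1.21. The largest falls were those of Lhx1 (-3.12), a LIM homeobox factor, Car10 (-2.20), Nhlh2 (-1.75) and Cxcr4 (-1.66), the receptor that holds Cajal-Retzius cells under the meninges. Cdkn1a, the cell cycle inhibitor p21, was the one that rose, by 0.88. Several of these genes are also known from midbrain neurons. In a separate list, picked for regulators of midbrain neurons, 8 of 11 genes were lower in the forebrain. The part of midbrain neurons in the values of the Cajal-Retzius genes was not tested.

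The tissues that give rise to Cajal-Retzius cells were represented by 11 genes, of which 7 were higher and 3 lower in the wild-type forebrain, with a median of 2.16. Among them Dmrt3 was higher by 4.30 and Emx2 by 2.91. Dbx1, which in the forebrain marks the boundary and septal sources but is also a midbrain progenitor gene, was lower by -4.71. Of 15 early glutamatergic neuron genes 6 were higher and 6 lower, with a median of 0.01, and without wild-type forebrain replicate 2 the lower calls were 3. They were 4 without wild-type midbrain replicate 1 or either knockout midbrain library. The higher ones included Neurod6 (6.21), Neurod2 (4.12), Fezf2 (4.06) and the vesicular glutamate transporter Slc17a7 (3.21). Slc17a6, the transporter used across the early brain, was lower, by -0.92 (edgeR adjusted p = 0.000385).

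Relatives of the 8 genes gave 2 higher and 2 lower of 7 tested, 1 and 1 without wild-type forebrain replicate 1, 2 and 1 without replicate 2 of that group or of the wild-type midbrain, 1 and 2 without wild-type midbrain replicate 1, and 3 and 2 without either knockout forebrain library. Trp63, the p53 relative nearest to Trp73, was higher in the wild-type forebrain by 5.51, from 6.85 and 3.48 CPM against 0.190 CPM and 0 counts. It was at 0 counts in knockout forebrain replicate 1 and at 6.35 CPM in knockout forebrain replicate 2. Trp73 was present in every forebrain pool. Within each genotype the pool with more Trp63 also had more Trp73. Across genotypes this order failed: knockout replicate 1, with 0 Trp63 counts, had more Trp73 than either wild-type pool. Those Trp73 levels were 25.0 and 21.9 CPM in wild-type replicates 1 and 2, and 27.0 and 30.8 CPM in knockout replicates 1 and 2. Trp63 marks surface epithelium, and its part in the Trp73 level was not tested. Tbx3, a T-box relative, was lower by -1.82, Calb1, which encodes calbindin, was lower by -1.44, and Trp53 was higher by 0.32.

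Markers of other cell types were present in both tissues. Of 12 cranial mesenchyme genes 4 were higher and 1 lower in the wild-type forebrain (median 0.16), and their sum was 1850 to 2306 CPM there and 1482 to 2059 CPM in the wild-type midbrain. Of 8 placode and sensory neuron genes 1 was higher and 3 were lower (3 and 3 without either knockout forebrain library or without wild-type midbrain replicate 2), with sums of 104 to 124 CPM and 115 to 121 CPM. Neural progenitor genes gave 5 higher and 3 lower of 9. Ebf genes are also active in mesenchyme and sensory neurons, and the part of those cells in the Ebf levels was not tested.

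Genes that were higher in the forebrain were also read in midbrain pools, at levels that differed between the pools. In wild-type midbrain replicates 1 and 2 and knockout replicates 1 and 2, Eomes was at 0.159%, 1.67%, 0.503% and 0.183% of its mean forebrain level. Tbr1 was at 0.536%, 2.58%, 1.13% and 0.337%. Emx1 and Dmrt3, factors of the cortical primordium, were also highest in wild-type midbrain replicate 2, at 8.10% and 10.0%, and next highest in knockout replicate 1, at 4.52% and 6.54%. Fezf2 had that order too, at 2.59%, 8.96%, 5.11% and 2.74%, and Emx2 and Wnt8b were also highest in wild-type replicate 2, at 15.8% and 23.7%. Other forebrain genes did not follow. Lhx2 was lowest in that pool, at 21.3% against 21.7% to 24.1% in the other 3, and Neurod6 had 0 counts there and at most 2 elsewhere in the midbrain. Trp73 shared the first of these peaks, at 9.16%, but not the second, at 1.64%. Calb2 shared neither: it was highest in wild-type replicate 1, at 5.92%, against 3.41% to 3.76% in the other 3 pools. Whether a little forebrain tissue was included in these pools was not tested, and the genes of this comparison were picked after their values had been seen.

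**Figure D4:**
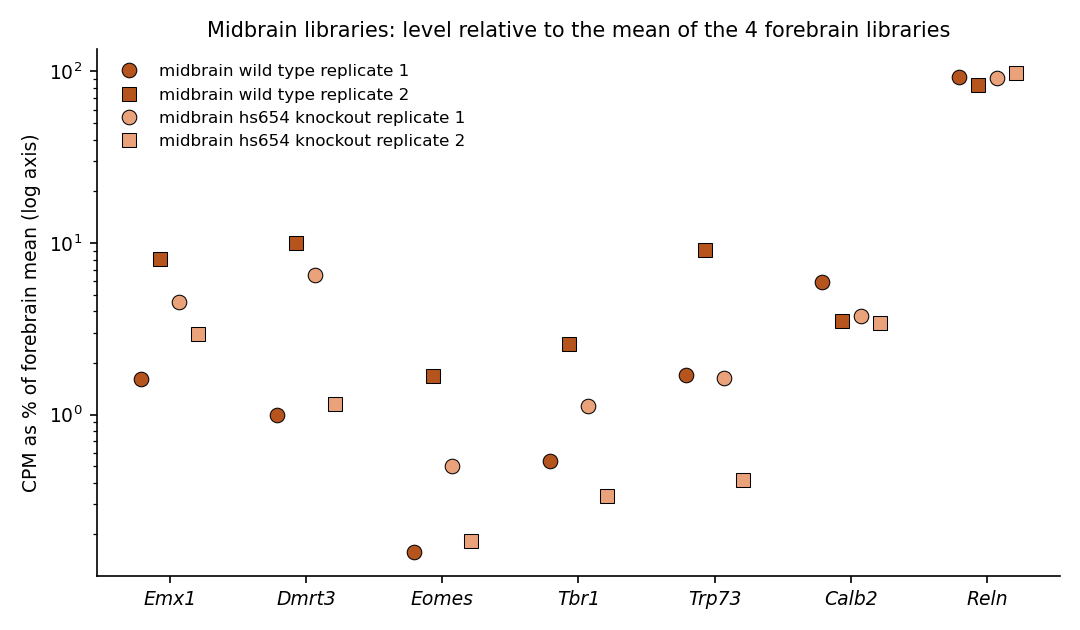
Level in each midbrain library as a percentage of the mean of the 4 forebrain libraries (vertical, logarithmic axis) for Emx1, Dmrt3 and 5 of the 8 genes. Wild-type midbrain replicate 2 is the highest pool for Emx1, Dmrt3, Eomes, Tbr1 and Trp73, and Reln lies near 100% in all 4 pools, at 83.1% to 97.7%.

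Genes most like each member over the 8 libraries were ranked by the root mean square difference of centred log2 CPM among 14320 genes with a mean of at least 1 CPM. Tbr1 and Eomes were near neighbours, at 0.483. Samd3 was nearest to Tbr1, at 0.461. Gsx2, a factor of the ventral telencephalon, was nearest to Calb2, at 0.496, with Dlx2 among its first 3, and Ccno was nearest to Trp73, at 0.467. The neighbours of the Ebf genes were much closer, with Nkain3 at 0.0766 from Ebf1, Dst at 0.0634 from Ebf2 and Shisal1 at 0.101 from Ebf3. Sgf29 lay 0.0532 from Reln, and Nr2f1, an orphan nuclear receptor of the early cortex, lay 0.0611 from it. Ebf1 and Ebf3 were 0.199 apart. Distances are small for any 2 genes that vary little, as Reln did.

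Within the forebrain the members did not vary as one. Relative to the mean of the 4 forebrain pools, Tbr1 was at 1.15 and 0.869 in the wild-type pools and at 1.16 and 0.818 in the knockout pools, so both first replicates were high. Reln had the same order, at 1.09, 0.908, 1.11 and 0.898, as had the pan-neuronal sum, at 1.06, 0.916, 1.19 and 0.836. Ebf1 did too, at 1.06, 0.962, 1.14 and 0.842. Trp73 was instead highest in knockout replicate 2, at 1.18, and Ebf2 highest in wild-type replicate 2, at 1.09. These relative levels are a description of 4 pools, and replicate numbers in the labels do not mark a shared source.

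The forebrain knockout comparison asks whether loss of hs267-853 went with altered expression. None of the 8 genes passed the edgeR test (0 of 8, with 0 at an unadjusted p under 0.05), and 0 passed with DESeq2 or limma-voom. Over all genes 0.013% passed, which is 2 genes, and 736 had an unadjusted p under 0.05. The log2 changes and their 95% intervals were 0.01 (-0.24 to 0.25) for Reln, 0.33 (-0.09 to 0.75) for Calb2, 0.30 (-0.23 to 0.83) for Trp73 and -0.03 (-0.47 to 0.41) for Tbr1. They were 0.07 (-0.27 to 0.42) for Eomes, -0.03 (-0.31 to 0.26) for Ebf1, -0.12 (-0.31 to 0.06) for Ebf2 and -0.14 (-0.29 to 0.01) for Ebf3. The intervals leave room for changes of up to 0.83 for Trp73 and are narrowest for Ebf3. In 4 of the 8 genes the 2 knockout pools did not overlap the 2 wild-type pools, Calb2 and Trp73 being higher and Ebf2 and Ebf3 lower, against 31.1% of all genes.

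Among the lists read beside the 8 genes, 1 gene passed the test in the forebrain knockout. Lhx1, from the list of other Cajal-Retzius genes, rose from 8.89 and 8.51 CPM to 18.5 and 15.7 CPM, by 0.98 on the log2 scale (SE 0.117, edgeR adjusted p = 0.0120). The list had 0 genes past the threshold without either wild-type forebrain pool or without either knockout midbrain library, and 2 without knockout forebrain replicate 2. All 8 genes of that list had positive log2 changes, with a median of 0.25 beside 0.01 for all genes. Neurod6 was at 8.21 and 3.48 CPM in the wild-type pools and 2.89 and 1.83 CPM in the knockout pools, a log2 change of -1.30 that did not pass (edgeR adjusted p = 0.963). The 12 cranial mesenchyme genes all had negative log2 changes, with a median of -0.28, and none passed. Without knockout forebrain replicate 2, 7 of them passed as lower (median -0.64). The median was -0.07 without knockout replicate 1, whose mesenchyme sum was 1337 CPM against 2020 CPM in replicate 2. It was -0.13 without wild-type forebrain replicate 1 and -0.42 without replicate 2. Their part in the values of the 8 genes was not tested.

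For the midbrain, the corresponding comparison sets the hs654 knockout against wild-type tissue. Again 0 of the 8 genes passed the edgeR test, as did 0% of all genes, of which 609 had an unadjusted p under 0.05, 1 member among them. DESeq2 and limma-voom also gave 0 of 8. The log2 changes were 0.10 for Reln, 0.11 for Ebf1, 0.14 for Ebf2 and 0.11 for Ebf3, and -0.42 for Calb2. That member was Trp73, with a fitted log2 change of -2.17 (edgeR unadjusted p = 0.0212, adjusted p = 0.992) from 7 and 30 counts in the wild-type pools and 5 and 1 in the knockout pools. Trp73, Eomes and Calb2 passed the filter on low counts through the forebrain, where they are high, and were not tested when the 4 midbrain libraries were fitted alone, and their midbrain changes rest on few counts. Without wild-type midbrain replicate 2 this change was -0.60. Tbr1 changed by -0.90 and Eomes by -1.18 on the log2 scale, neither past the test, and without that library the values were 0.53 and 1.15.

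Both knockout midbrain pools lay above both wild-type pools for the 3 Ebf genes. They lay below both for Trp73, on the few counts given above. Groups thus lay apart, in either direction, for 4 of the 8 genes, against 36.7% of all genes. Of the pan-neuronal genes, 10 of 10 had positive log2 changes, with a median of 0.12, and none passed. All 12 cranial mesenchyme genes were positive as well, with a median of 0.16 that was -0.08 without wild-type midbrain replicate 1 and 0.46 without replicate 2, and 7 of 8 erythroid genes were negative, with a median of -0.44. In the lists read beside the 8 genes, no gene passed in the midbrain knockout, and without wild-type midbrain replicate 2, 2 erythroid genes did.

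**Figure D5:**
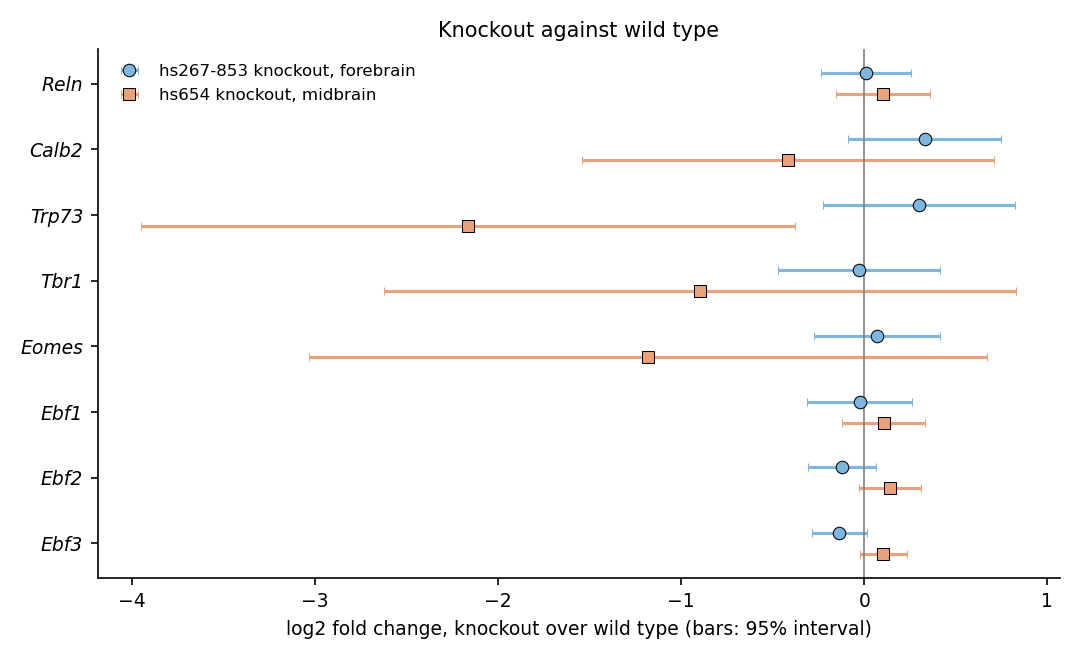
Knockout over wild-type log2 fold change (horizontal axis) of the 8 genes in the forebrain (hs267-853) and the midbrain (hs654), with 95% intervals as bars. Forebrain intervals all include 0. In the midbrain that of Trp73 lies below 0 (-3.95 to -0.38), although the gene did not pass the test after adjustment. The widest intervals are those of Eomes, Tbr1 and Trp73 in the midbrain, where these genes had at most 42 counts per library.

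A direct test of whether the midbrain and forebrain knockout effects differed gave 0 of 8 genes past the threshold with edgeR, against 0.0065% of all genes. DESeq2 and limma-voom gave 0 of 8 as well. An unadjusted p under 0.05 was reached by 3 members and by 619 of all 15383 genes. Trp73 had a difference of -2.46 on the log2 scale (edgeR unadjusted p = 0.0132, adjusted p = 0.996). Ebf3 had 0.24 (edgeR unadjusted p = 0.0201, adjusted p = 0.996) and Ebf2 had 0.26 (edgeR unadjusted p = 0.0411, adjusted p = 0.996). Without a filter on low counts Trp73 passed, at -2.45 with an edgeR adjusted p of 0.00226, while its value rests on the few midbrain counts given above.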

How the data were processed

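Poly(A) RNA of pooled E11.5 brain tissue was sequenced, and the authors deposited 1 table of raw counts per gene for each of 8 libraries. STAR, HTSeq, DESeq2 and mm10 (GRCm38) are named, without versions or order, per the submitters' processing notes. Annotation and strand setting are not given in the sources used here. The 5 rows naming no gene were set aside. Reads outside any feature were 55.4% to 58.9% of the reads in genes, outside any feature or ambiguous between features.

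Counts were fitted with edgeR 4.0.16 in R 4.3.3 (filterByExpr, TMM, quasi-likelihood test, two-sided) as 4 group means over all 8 libraries, with Benjamini-Hochberg adjustment over 15383 genes and a threshold of 0.05. CPM values are counts per 1000000 of the TMM-scaled library total. The common biological coefficient of variation was 7.62%. Alternatives used other scalings, filters, DESeq2 1.42.0, limma-voom 3.58.1, a minimum change of 1.5-fold, fewer libraries and a replicate block. Depth was 9051632 to 18024406 counts, so the 3-count floor lay at 0.170 to 0.328 CPM.

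The 8 genes, the lists and the named alternatives were chosen with earlier results of these data known. All 8 genes are named, and from each list up to 4 genes past the threshold with the largest change or, where none passed, the 2 with the smallest p. Other named genes, among them Cdkn1a, Slc17a6, Ebf4 and the B cell genes, were singled out after their values were seen or to complete a family. Some genes that the rule names are not reported here. Promoter windows and gene positions came from RefSeq (GRCm38.p6), which gave a window for 6 of the 8 genes. Same-numbered libraries did not deviate together (correlations of -0.0255 to 0.0670), so the numbers were not taken as pairs.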

Additional observations from a re-analysis of the deposited data

How the results depend on the processing

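The number of the 8 genes past the threshold stayed at 7, 0, 0 and 7 in the wild-type tissue, forebrain knockout, midbrain knockout and knockout tissue comparisons under every alternative run, although with pan-neuronal scaling Reln took the place of Ebf2 among the 7. With the midbrain libraries fitted alone only 5 of the 8 genes were tested, without Calb2, Trp73 and Eomes. For the difference between the knockout effects it was 0, except for 1 (Trp73) when low counts were not filtered. Fitted with a replicate block, the counts over all genes were 4501, 3, 0, 4515 and 1 in those 5 comparisons, and no call among the 8 genes changed.

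Counts over all genes moved more. A minimum change of 1.5-fold left 1086 of 4548 genes between the wild-type tissues, 1026 of 4523 between the knockout tissues, 1 of 2 in the forebrain knockout and 0 of 1 for the difference, since it asks for a larger change. Pan-neuronal scaling, added after seeing the data, called 12691 genes between the wild-type tissues (12290 higher, 401 lower) and 13038 between the knockout tissues, since it shifts the median gene. Without the low-count filter the forebrain knockout had 161 genes, the midbrain knockout 22 and the difference 111. DESeq2 gave 13 for the forebrain knockout and 4 for the difference. The forebrain knockout count was 1 with limma-voom, and with the 4 libraries of 1 tissue alone it was 1 in each knockout comparison. With each library omitted in turn the ranges were 2816 to 5285, 1 to 209, 0 to 8, 2810 to 4358 and 0 to 64 genes in the 5 comparisons. The count of 209 came without knockout forebrain replicate 2, which also gave the 64, and the count of 8 without wild-type midbrain replicate 2. The causes of these other moves were not tested.

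Among single genes, Ebf2 turned to 0.070 between the wild-type tissues under pan-neuronal scaling. The other values that changed sign did not pass the test. In the forebrain knockout, Reln was -0.00020 with a mean of at least 50 counts, -0.0024 within its tissue alone and -0.15 to 0.15 over the libraries left out. The same ranges were -0.31 to 0.20 for Tbr1, -0.024 to 0.16 for Eomes and -0.27 to 0.17 for Ebf1. In the midbrain knockout they were -0.71 to 0.048 for Calb2, -2.08 to 0.53 for Tbr1 and -2.18 to 1.15 for Eomes, and between the knockout tissues -0.071 to 0.23 for Reln. For the difference they were -0.048 to 0.26 for Reln, -2.04 to 0.56 for Tbr1, -2.25 to 1.08 for Eomes and -0.060 to 0.37 for Ebf1. A group left with 1 library is assumed to vary like the others. Depth limits the midbrain values of Eomes, Tbr1, Trp73 and Calb2, which rest on 1 to 42 counts per library.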
